A study of Mus musculus with 16 samples.

Results

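The 10 genes described here make up the main machinery of MHC class II antigen presentation in the mouse: H2-Aa, H2-Ab1, H2-Eb1, Cd74, H2-DMa, H2-DMb1, H2-DMb2, H2-Oa, H2-Ob and Ciita. They were taken by name from a list, and all 10 of 10 were found among the 31053 features of every library. The experiment measured single-cell RNA from live, sorted CD45+ cells of subcutaneous right-flank tumors in C57BL/6J mice. The lines implanted were MC38, from a colorectal carcinoma, and Panc02-SIY, from a pancreatic adenocarcinoma and carrying the model antigen SIY. The 4 groups, each with 4 libraries, were untreated MC38 (MC38 NT), MC38 24 h after a single CT-guided dose of 12 Gy (MC38 RT), untreated Panc02-SIY (Panc02-SIY NT) and Panc02-SIY 24 h after the same dose (Panc02-SIY RT). All animals were young adults of the same strain with no engineered allele named, and the groups differed in the implanted line, the number of cells implanted and the radiation. The sources used here differ on the number of animals per group, and the smallest number given is below the 4 libraries. Each library was taken as 1 sample, so p-values measure the spread between libraries, which may not all be separate animals.

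MHC class II molecules present peptides from endocytosed proteins to CD4+ T cells. The α and β chains assemble with the invariant chain, proteases trim that chain in the endosome, and the chaperone H2-DM exchanges the remaining fragment for antigenic peptide, a step that H2-O restrains. The coactivator Ciita drives transcription of these genes, which dendritic cells, B cells and macrophages are known for expressing. Counts in T cells and neutrophils serve here as a measure of background, and whether these cells make class II RNA themselves was not tested.

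H2-Aa encodes the α chain of I-A, H2-Ab1 the β chain of I-A, and H2-Eb1 the β chain of I-E. Only RNA was read here, so levels of these genes do not show class II protein on the cell surface. No α chain of I-E was among the 10 genes, so H2-Eb1 RNA cannot be read as presentation by I-E. In the GENCODE annotation of GRCm38, the build the submitters' processing notes name as mm10, 8 of the 10 genes lie within the class II region of chromosome 17. From the lowest coordinate they are H2-Oa (chr17:34092340-34095234, plus strand), H2-DMa (chr17:34119541-34139101, plus), H2-DMb2 (chr17:34143307-34151555, plus), H2-DMb1 (chr17:34153072-34160230, plus), H2-Ob (chr17:34238903-34254414, plus), H2-Ab1 (chr17:34257689-34269419, plus), H2-Aa (chr17:34282744-34287823, minus) and H2-Eb1 (chr17:34305867-34316674, plus). Cd74 (chr18:60803848-60812652, plus), the invariant chain, and Ciita (chr16:10480059-10528418, plus) lie outside it.

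Promoters of class II genes are known to share an X box, bound by the RFX complex, and a Y box, bound by NF-Y, on which Ciita is assembled. The windows below are shown because they are the shared element on which the regulator among these genes acts. RefSeq promoters (GRCm38.p6, 250 bases before to 50 bases after each start) were given for 7 of the 10 genes. Capitals mark the letters searched: AAC, which lies within the X box, and TGATTGG, the Y box, on the strand of the gene.

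H2-Oa: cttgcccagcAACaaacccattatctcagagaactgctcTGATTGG
H2-DMb2: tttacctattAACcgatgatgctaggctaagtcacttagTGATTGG
H2-DMb1: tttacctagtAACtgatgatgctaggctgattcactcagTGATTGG
H2-Ob: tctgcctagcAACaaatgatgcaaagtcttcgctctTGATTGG
H2-Aa: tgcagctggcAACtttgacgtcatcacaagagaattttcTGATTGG
H2-Eb1: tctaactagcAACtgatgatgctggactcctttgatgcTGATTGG

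These windows stand at chr17:34092295-34092340 (H2-Oa), chr17:34145118-34145163 (H2-DMb2), chr17:34153089-34153134 (H2-DMb1), chr17:34238810-34238852 (H2-Ob), chr17:34287867-34287912 on the minus strand (H2-Aa) and chr17:34305768-34305812 (H2-Eb1). The Y box ended 38 to 85 bases before the RefSeq start, and 23 to 26 bases separated the capitals. RefSeq starts differ from the starts of the GENCODE spans given above for some genes. The windows of H2-DMb2 and H2-DMb1 lie inside those spans, and that of H2-Oa ends on the first base of its span. AAC followed after 23 to 26 bases by TGATTGG was found in 6 of the 7 genes, all but H2-DMa. Among all 32851 promoters of that length, 0.460% held it on either strand and 0.189% on the strand of the gene, while TGATTGG alone was in 7.82% on either strand. The motif was chosen after the sequences were seen, and a match describes the letters only.

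The libraries were unequal in ways that bear on every level below. In MC38, 76.0 to 94.0% of the barcodes of a library occurred in another library of the same tumor, against 2.31 to 8.39% in Panc02-SIY. The sources used here do not state why, so the MC38 libraries may not be fully separate samples. Each barcode was therefore kept only in the library of its tumor in which it had the most UMIs (unique molecular identifiers, 1 per captured RNA molecule), which left 2632 of 9843 barcodes in MC38 and 18136 of 18835 in Panc02-SIY. Kept barcodes numbered 147 to 609 per MC38 library and 1113 to 4452 per Panc02-SIY library, with median depths of 2991 to 11097 and 3538 to 6594.5 UMIs.

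A barcode was assigned to a cell class when at least 3 of 8 markers of that class had a UMI and at least 2 more than of any other class. No class II gene was a marker. This gave 734 macrophages in MC38 NT, 583 in MC38 RT, 1765 in Panc02-SIY NT and 1104 in Panc02-SIY RT, and between 20.2% and 37.2% of barcodes per group stayed unassigned. Conventional dendritic cells (cDCs) numbered 32, 28, 140 and 173 in the same order, monocytes 26, 43, 92 and 358, and B cells 2, 8, 58 and 122. MC38 macrophages were sequenced far deeper than those of Panc02-SIY, with a median of 22490 UMIs in MC38 NT against 2334 in Panc02-SIY NT. Levels are given as CPM (counts per 1000000 UMIs) of the summed counts of a class in a library. A 3' library counts 1 tag per molecule whatever its length, so levels of different genes were set side by side without scaling by length. Differences between genes in capture or mapping were not checked, and ratios between genes carry that limit.

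Cd74 was the most abundant class II transcript in every class that expressed these genes. In MC38 macrophages its mean of 17570.6 CPM (SD 3704, n = 8 libraries) ranked 1 among all genes. In MC38 cDCs it ranked 2, at 23124 CPM (SD 5132, n = 6), and in Panc02-SIY macrophages it ranked 4, at 14494 CPM (SD 2097, n = 8). The 3 chain genes lay close to each other in macrophages. H2-Aa averaged 5820.2 CPM (SD 1232) in MC38 macrophages and 5602 CPM (SD 862) in Panc02-SIY macrophages, H2-Ab1 5983 (SD 1139) and 4995 (SD 627), and H2-Eb1 5571 (SD 1203) and 4671 (SD 584).

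**Figure D1:**
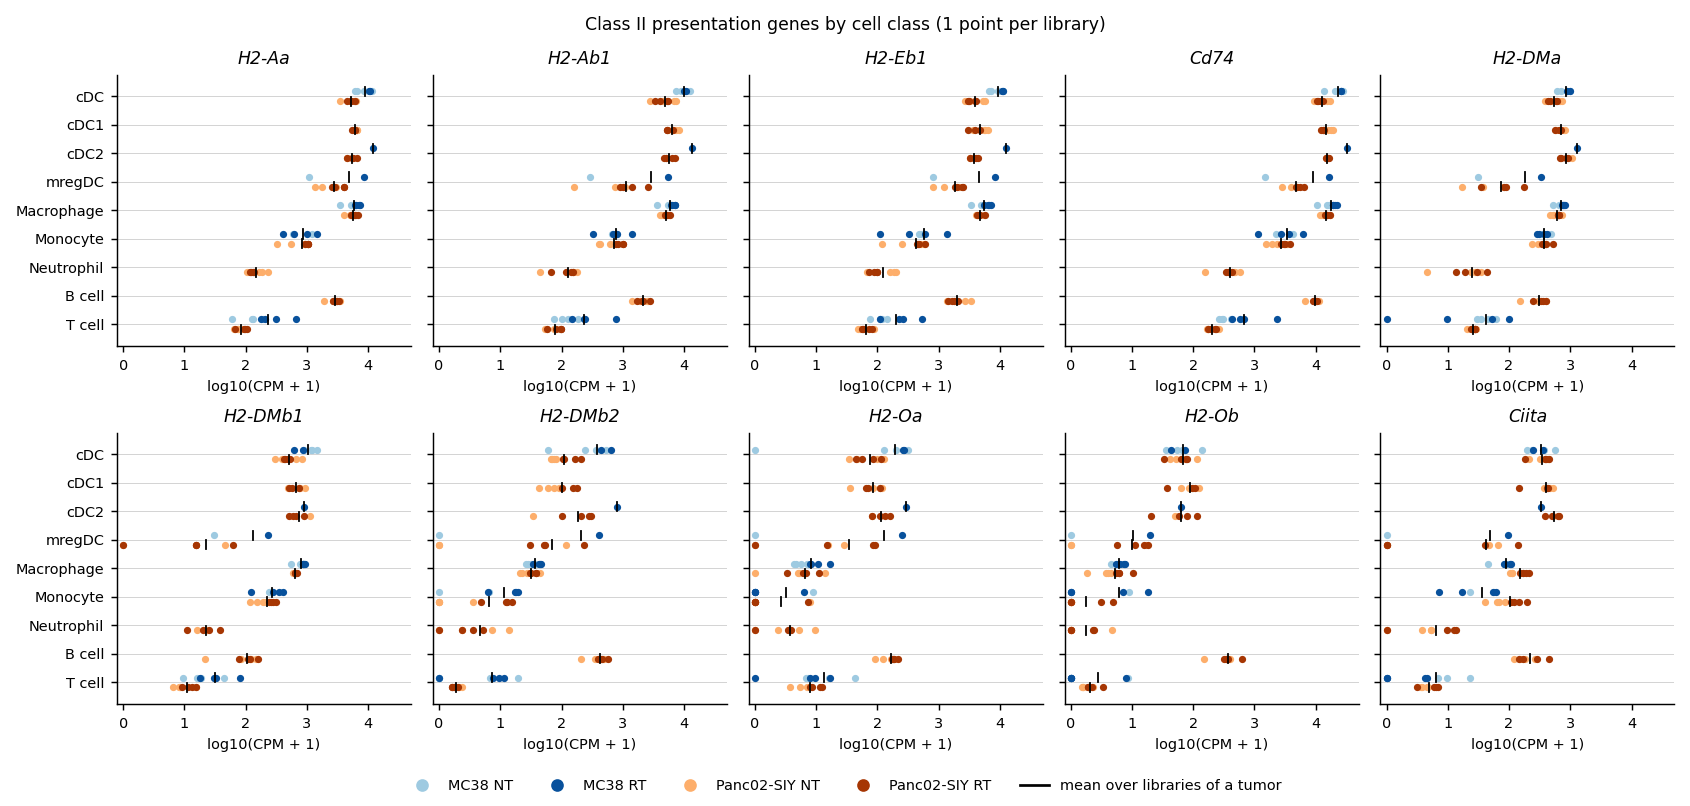
Level of each class II gene by cell class, as log10(CPM + 1) of the summed counts, with 1 point per library holding at least 5 barcodes of the class and a black bar at the mean over the libraries of a tumor (upper row of each class MC38, lower row Panc02-SIY). Cd74 lies furthest right, H2-DMb2, H2-Oa and H2-Ob reach their highest Panc02-SIY levels in B cells, and T cells sit at the left.

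In MC38, cDCs stood above macrophages for H2-Aa, H2-Ab1, H2-Eb1, H2-DMb2, H2-Ob and Ciita, in 6 of 6 libraries each. H2-Aa averaged 8982 CPM (SD 2299, n = 6) in these cDCs and H2-Ab1 10034 CPM (SD 1680). The exact paired permutation test within libraries (two-sided) gave an adjusted p of 0.0833 for each of those 6 genes, where 6 pairs allow no raw p below 0.0312. The differences were 0.69 on the log2(CPM + 1) scale for H2-Aa, 0.82 for H2-Ab1 and for H2-Eb1, 1.87 for Ciita, 3.16 for H2-DMb2 and 3.43 for H2-Ob. Cd74 was higher in cDCs in 5 of 6 libraries, with an adjusted p of 0.125 in the same exact test. Macrophages in turn stood above monocytes for 8 of the 10 genes, again in 6 of 6 libraries each, H2-Oa and H2-Ob being the exceptions, by 2.86 for H2-Aa and 0.99 for H2-DMa on that scale. Of 40 neighboring pairs tested in MC38, 15 passed an adjusted p of 0.1, and 25 passed with all barcodes. None passed under a stricter gate, which asked for at least 4 markers and a margin over other classes that grew with the marker count.

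In Panc02-SIY the order of the chain genes was flat at its top. H2-Aa averaged 6181 CPM in cDC1 (SD 403, n = 7), 5602 in macrophages and 5360.5 in cDC2 (SD 874, n = 5), and neither neighboring pair differed beyond its spread (exact permutation, adjusted p 0.320 and 0.735, where the 5 pairs with cDC2 allow no raw p below 0.0625). B cells held 2902 CPM of H2-Aa (SD 494, n = 8) and mregDCs 2796 (SD 1004, n = 7), and these also did not differ detectably. Here mregDC names barcodes gated on the list for mature cDCs enriched in immunoregulatory molecules, which holds Ccr7, Fscn1 and Ccl22. Monocytes followed at 844 CPM (SD 267, n = 8), below mregDCs in 7 of 7 libraries (adjusted p 0.0625, exact permutation) and above neutrophils in 8 of 8 (adjusted p 0.0568, exact permutation). Neutrophils held 148 CPM and T cells 82.3 CPM (63.5 to 104 over 8 libraries), levels taken here as background. This background was not even, since neutrophils stood above T cells for H2-Eb1 in 8 of 8 libraries (adjusted p 0.0568, exact permutation). For Cd74 they did so in 7 of 8 (adjusted p 0.0625, exact permutation). Of 80 neighboring pairs in Panc02-SIY, 20 passed.

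The background was higher in MC38. T cells there held 234 CPM of H2-Aa (SD 192, n = 8), with 673 CPM in MC38 RT replicate 3, where Cd74 reached 2355 CPM. In T cells, 7 of the 9 class II genes tested were called higher in MC38 RT than in Panc02-SIY RT (5.4% of all genes were called higher), by 2.06 (SE 0.36) on the log2 scale for H2-Aa. The macrophage level of H2-Aa in MC38 was well above these values in every library, at 3420.4 CPM or more.

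The share of class II UMIs held by macrophages depended on the tumor and the gene. For H2-Aa they held 80.8% (SD 9.26, n = 4) of all H2-Aa UMIs in MC38 NT, 79.1% (SD 5.57) in MC38 RT, 50.8% (SD 13.3) in Panc02-SIY NT and 49.9% (SD 10.6) in Panc02-SIY RT. The cDCs held 5.00% (NT) and 6.01% (RT) of H2-Aa in MC38, against 13.7% and 13.4% in Panc02-SIY. Of Ciita UMIs macrophages held 70.3% (SD 10.9, n = 4) in MC38 NT and 34.1% (SD 15.5, n = 4) in Panc02-SIY NT, and of H2-Ob UMIs 47.6% (SD 14.1) and 7.01% (SD 6.94). Across all CD45+ cells together, all 10 genes were called higher in MC38 than in Panc02-SIY in both the untreated pair (26.7% of all genes called higher) and the irradiated pair (27% called higher). H2-Aa differed by 2.16 (SE 0.22) on the log2 scale in each pair. These sums mix cell composition with level per cell, since macrophages were 55.3% and 44.7% of MC38 barcodes and 18.8% and 12.6% of Panc02-SIY barcodes.

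H2-DM is a heterodimer of an α chain, H2-DMa, and a β chain for which the mouse has a pair of close copies, H2-DMb1 and H2-DMb2. Macrophages used H2-DMb1 almost alone: 813 CPM against 35.7 CPM of H2-DMb2 in MC38, and 634 against 30.8 CPM in Panc02-SIY. B cells were the other way round, with 105 CPM of H2-DMb1 (SD 44.3, n = 8) and 426 CPM of H2-DMb2 (SD 111). As a share of both copies' counts, H2-DMb2 took 82.2% in B cells (SD 7.92, n = 7 libraries with at least 20 such UMIs) and 4.60% in Panc02-SIY macrophages (3.27 to 6.40% over 8 libraries). It was higher in B cells in 7 of 7 libraries that had both. In cDCs the share was intermediate, 27.3% in MC38 (SD 16.7, n = 6) and 18.4% in Panc02-SIY (SD 7.79, n = 8). It was above macrophages in 14 of 14 libraries. These cDCs include mregDCs, which held 59 UMIs of H2-DMb2 against 19 of H2-DMb1 in Panc02-SIY, and 43 against 25 in MC38. With 20 UMIs needed, the mregDC share could be read only in MC38 RT replicate 4 (64.2%) and Panc02-SIY RT replicate 3 (79.3%). Panc02-SIY NT replicate 4 and MC38 NT replicate 3 went the other way, with 45.7 and 29.5 CPM of H2-DMb1 and no H2-DMb2. Panc02-SIY NT replicate 3 had neither. The copies are nearly identical, so reads may have been split or dropped between them, and the split was not checked.

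The mregDCs differed from the other dendritic cells in how these genes stood to each other. H2-Ab1 gave 0.377 counts per count of H2-Aa in mregDCs of Panc02-SIY (SD 0.166, n = 7, range 0.119 to 0.636) against 1.04 in cDC1 (SD 0.146, n = 7), 1.06 in cDC2 (SD 0.163, n = 5) and 0.898 in macrophages (SD 0.0751, n = 8). The ratio was lower in mregDCs than in cDC1 in 6 of 6 libraries, and lower than in macrophages in 9 of 9 libraries of either tumor. For H2-Eb1 the ratio to H2-Aa was 0.666 in mregDCs (SD 0.114, n = 7) and 0.757 in cDC1 (SD 0.153, n = 7), with overlapping libraries. H2-DMa was low against H2-Aa as well, at 0.0260 counts per count of H2-Aa in mregDCs (SD 0.0151, n = 7) against 0.112 in cDC1 (SD 0.0125, n = 7). Its level there, 72.3 CPM (SD 51.8, n = 7), was below that of B cells in 7 of 7 libraries (adjusted p 0.0625, exact permutation), and H2-DMb1 was at 21.4 CPM, with no UMI in 2 of 7 libraries. The mregDC values rest on 28 barcodes in 3 libraries of Panc02-SIY NT and 54 in 4 of Panc02-SIY RT, 6 to 17 per library.

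**Figure D2:**
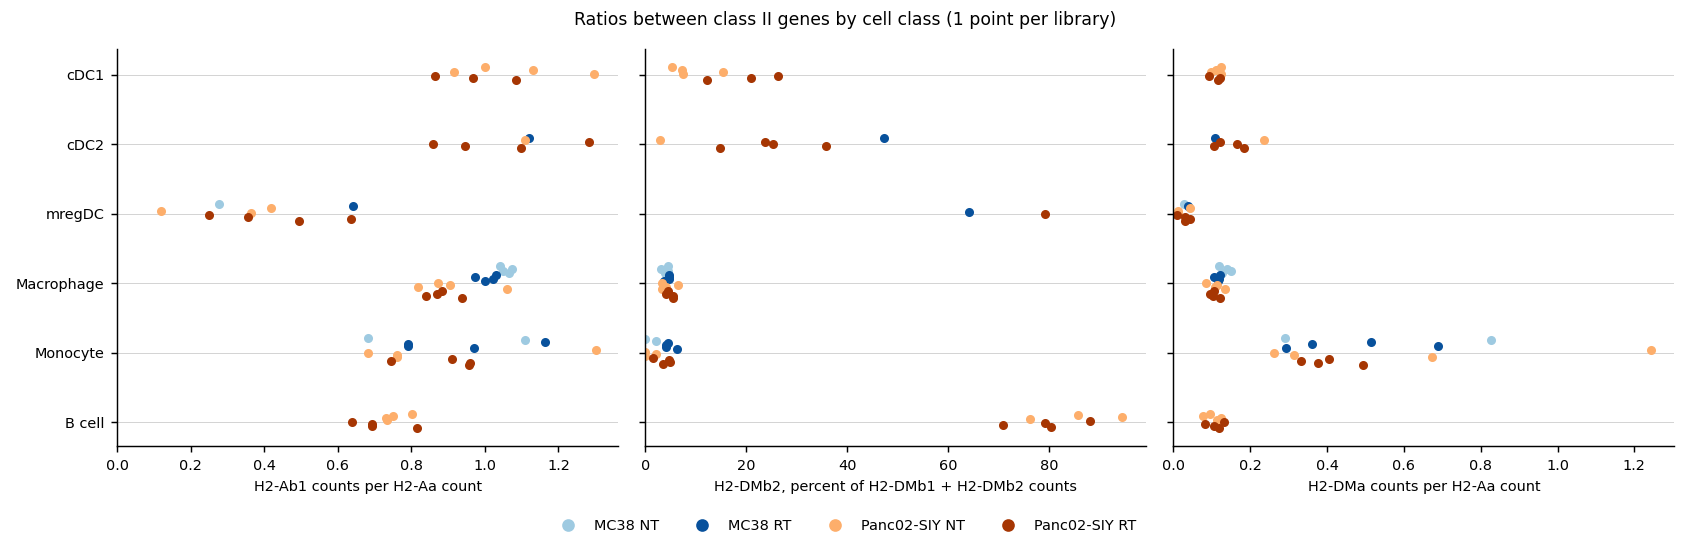
Ratios between class II genes by cell class, with 1 point per library: H2-Ab1 counts per H2-Aa count (left), H2-DMb2 as a percent of H2-DMb1 and H2-DMb2 counts (middle) and H2-DMa counts per H2-Aa count (right), each from at least 20 UMIs. In Panc02-SIY, mregDCs lie at 0.119 to 0.636 on the left and B cells at 70.8 to 94.6% in the middle, while macrophages of both tumors stay between 3.14 and 6.40%.

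H2-Oa and H2-Ob, the chains of the inhibitor H2-O, reached their highest Panc02-SIY levels in B cells. In B cells of Panc02-SIY, H2-Ob averaged 363 CPM (SD 128, n = 8), above the 86.7 CPM of cDC1 in 7 of 7 libraries (adjusted p 0.0625, exact permutation), and H2-Oa averaged 165 CPM (SD 39.9). Macrophages held 4.32 CPM of H2-Ob and 5.54 CPM of H2-Oa in Panc02-SIY, of which H2-Oa was not above T cells, at 7.02 CPM. The counts of both H2-O chains came to 0.639 of those of the H2-DM chains in B cells (SD 0.104, n = 7), 0.119 in Panc02-SIY cDCs (SD 0.0274, n = 8) and 0.00760 in macrophages (SD 0.00314, n = 8). The same ratio was 0.289 in mregDCs (SD 0.307, n = 4), 0.263 in NK cells (SD 0.142, n = 8) and 0.226 in T cells (SD 0.0849, n = 8), where NK cells and T cells held 33.4 and 25.0 CPM of H2-DMa.

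Ciita, the coactivator, had its highest Panc02-SIY means in cDC2 and cDC1. It averaged 542 CPM in cDC2 (SD 109, n = 5), 395 in cDC1 (SD 122, n = 7), 221 in B cells (SD 110, n = 8), 151 in macrophages (SD 40.4, n = 8) and 102 in monocytes (SD 49.7, n = 8) of Panc02-SIY. The step from macrophages to monocytes passed, in 7 of 8 libraries (adjusted p 0.0625, exact permutation). Ciita was higher in cDC2 than in cDC1 in 4 of 4 libraries, by 0.59 on the log2(CPM + 1) scale, but 4 pairs allow no raw p below 0.125 in this test, so the step could not pass. Set against its targets, Ciita gave 5.05 counts per 1000 counts of H2-Aa, H2-Ab1 and H2-Eb1 in MC38 macrophages (SD 0.698, n = 8, range 4.36 to 6.17) and 9.82 in Panc02-SIY macrophages (SD 1.92, n = 8, range 7.61 to 13.7). The libraries of the tumors did not overlap in this ratio, on which no test was run. Its mean was also lower in MC38 in monocytes (22.2 against 51.7) and in cDCs (12.0 against 24.6), with overlapping libraries. Macrophage depth differed between the tumors, and its part in the ratio was not tested.

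Comparisons between groups within a class used edgeR's quasi-likelihood test on summed counts, with values as CPM after TMM scaling (a correction for differences in RNA composition), and calls required a fold change above 1.3 together with an adjusted p under 0.1 over all genes. The first question was whether radiation changed class II genes in MC38. In MC38 macrophages 5 of the 10 genes rose 24 h after 12 Gy, all 3 chain genes, Cd74 and H2-DMb1, against 9.49% of 12041 genes called in either direction and 4.98% called higher. The 10 genes had a median log2 fold change of 0.50, where the median of all genes was 0.017. All 10 fold changes were above 0. Of the 10, 7 had groups without overlap after TMM scaling, and the share of all genes without overlap was not computed.

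For H2-Aa the libraries of MC38 NT stood at 5791, 5579, 3613 and 5366 CPM and those of MC38 RT at 6538, 8419, 7691 and 7291. Every irradiated library lay above every untreated one, and NT replicate 3 lay lowest. The log2 fold change was 0.56 (SE 0.14, adjusted p 0.0192).

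For Cd74, the invariant chain, MC38 NT stood at 16759.6, 17119.7, 11032 and 15947 CPM and MC38 RT at 20728, 25355, 22791 and 22115. The groups again did not overlap. Its log2 fold change was 0.58 (SE 0.13, adjusted p 0.00908).

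H2-Ab1 ranged from 3794 to 6026 CPM in MC38 NT and from 6739.8 to 8195 in MC38 RT (log2 fold change 0.48, SE 0.13, adjusted p 0.0289). H2-Eb1 ranged from 3522 to 5529.8 and from 5864 to 8134 (log2 fold change 0.56, SE 0.14, adjusted p 0.0182). Both had separate groups on this scale. In plain CPM the H2-Eb1 groups overlapped, at 5416 in the highest untreated and 5408 in the lowest irradiated library, as did those of H2-DMa. H2-DMb1 ranged from 569 to 870.0 CPM in NT and from 927 to 1031 in RT, and its log2 fold change of 0.38 (SE 0.11, adjusted p 0.0353) was at the edge of the fold threshold. It lost its call without any 1 of 12 of the 16 libraries, among them MC38 NT replicate 3, where its log2 fold change was 0.23.

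H2-DMa, at 0.36 (SE 0.12, adjusted p 0.0826), passed the test but not the fold. H2-Oa and H2-DMb2 missed at adjusted p 0.104 each, with log2 fold changes of 1.15 (SE 0.41) and 0.52 (SE 0.19), and H2-Oa ranged from 3.37 to 6.25 CPM in NT and from 7.80 to 18.3 in RT. DESeq2 called 6 genes, H2-Oa among them (1.23, adjusted p 0.0995), where it called 980 of 12041 genes. Over the other settings H2-Oa was called in 11 of 32 and H2-DMb2 in 7. For Ciita the groups overlapped, with 104, 86.3, 47.6 and 100.1 CPM in MC38 NT and 88.6, 118, 116 and 95.1 in MC38 RT (log2 fold change 0.31, SE 0.21, adjusted p 0.465). H2-Ob was at 3.72 to 7.52 CPM over both groups and was not called.

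**Figure D3:**
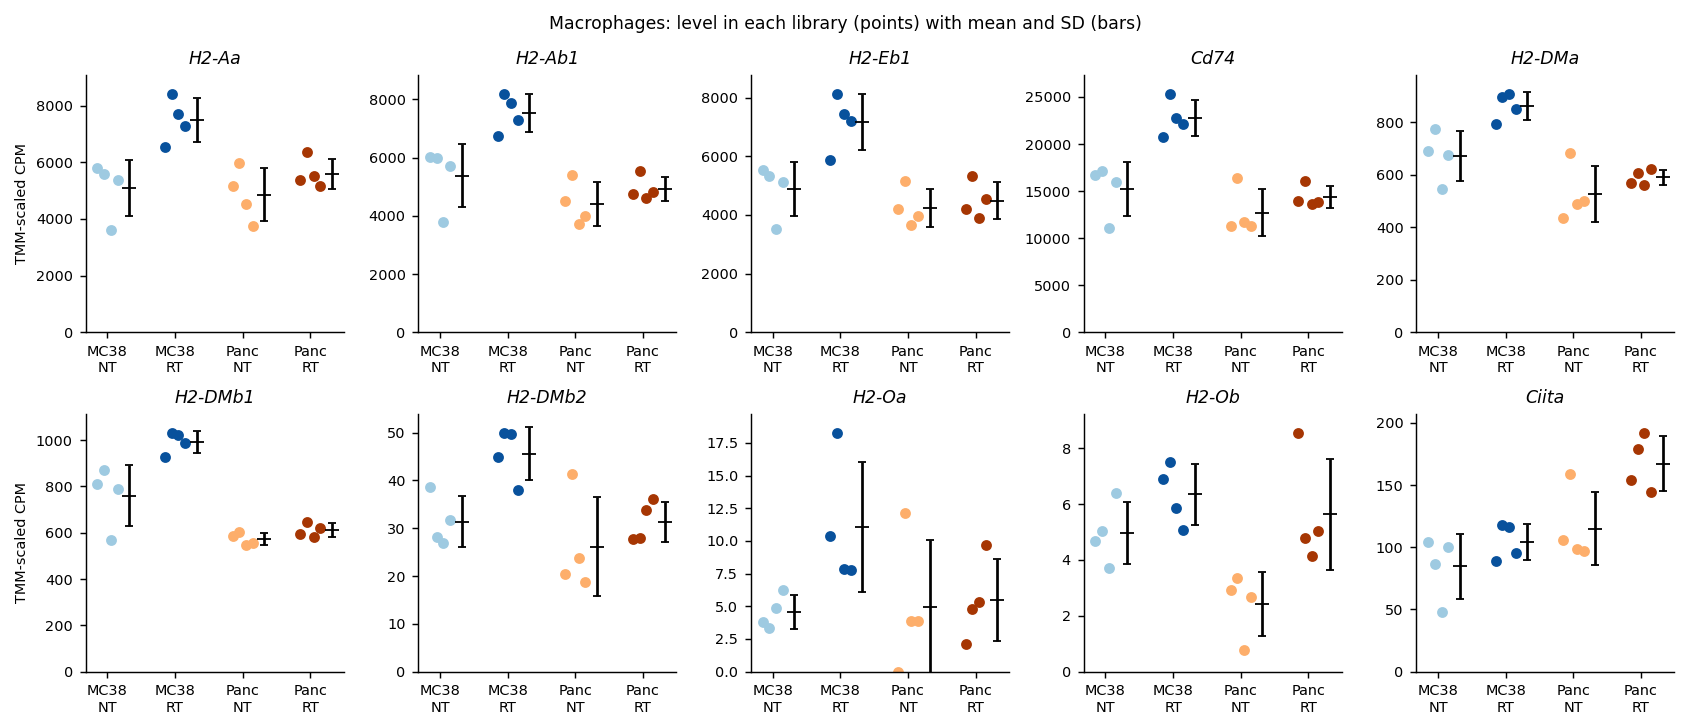
Class II genes in macrophages, as TMM-scaled CPM (linear axes from 0), with 1 point per library and the mean and SD of each group of 4 beside the points. For H2-Aa, H2-Ab1, H2-Eb1, Cd74, H2-DMa, H2-DMb1 and H2-Oa all 4 MC38 RT libraries lie above all 4 MC38 NT libraries. For Ciita the 4 Panc02-SIY RT libraries lie above the 4 of MC38 RT. The share of all genes without overlap was not computed.

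Other values moved with the MC38 result. Among macrophages, the 8 markers of the monocyte list (all with UMIs) summed to 1087 to 1520 CPM in MC38 NT and 1722 to 1984 in MC38 RT, the 8 of cDC1 to 260.4 to 431 and 396 to 514, and the 8 of cDC2 to 198 to 329 and 293 to 421. The macrophage list stayed at 26318 to 27209 and 24092 to 28850.1 CPM. The part of these cells in the rise was not tested. In T cells, taken here as background, 0 of 9 class II genes were called by edgeR in MC38 RT against NT (0.304% of all genes called). Of the 9, 4 had an unadjusted p below 0.05, against 1096 of 10534 genes, and the median log2 fold change was 1.11. Cd74 in T cells was at 263 to 413 plain CPM in MC38 NT and 428 to 2355 in MC38 RT, groups that overlapped after TMM scaling, and the part of this background in the macrophage values was not tested. Over all CD45+ cells of MC38, 1 of the 10 genes was called after radiation, H2-Oa by 0.93 (SE 0.31, adjusted p 0.0847), where 5.57% of all genes were called higher. Without the 5% of barcodes with the most UMIs in each library, none of the 10 genes was called by edgeR. Of all genes 684 of 11350 were called in that setting. The log2 fold changes were then 0.38 for H2-Aa (adjusted p 0.198) and 0.39 for Cd74 (adjusted p 0.142). MC38 macrophages were deep, at medians of 22490 (NT) and 19595 UMIs (RT), against medians of 2991 to 11097 over whole libraries. Whether the barcodes left out were mixtures or single deep cells was not tested. Without MC38 NT replicate 3, H2-Aa (0.39), H2-Eb1 (0.39) and Cd74 (0.42) stayed called and H2-Ab1 (0.31) and H2-DMb1 did not. H2-Ab1 was also not called without MC38 RT replicate 2 or without MC38 RT replicate 3. With all barcodes 4 genes were called, all but H2-DMb1, where 447 of 12303 genes were called.

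The share of macrophages with at least 1 UMI of H2-Aa, H2-Ab1 or H2-Eb1 was compared after each barcode was thinned to 1000 UMIs. It was 89.3, 95.4, 67.9 and 92.7% in MC38 NT (mean 86.3%, SD 12.5) and 98.0, 97.7, 92.5 and 92.1% in MC38 RT (mean 95.1%, SD 3.23). It was 96.9% in Panc02-SIY NT (SD 1.12, n = 4) and 97.2% in Panc02-SIY RT (SD 1.38, n = 4). Thinning left out 57, 47, 389 and 256 shallower macrophages in the order MC38 NT, MC38 RT, Panc02-SIY NT and Panc02-SIY RT. Among T cells, taken here as background, the thinned shares by library were 27.8 to 65% in MC38 NT and 40 to 64.3% in MC38 RT. They were 9.60 to 16.1% in Panc02-SIY NT and 10.7 to 13.6% in Panc02-SIY RT. Median depths of these T cells were 7469, 5707.5, 8198.5 and 6126 UMIs in that order. Unthinned, macrophages reached 97.9 to 98.7%. No comparison passed the exact permutation test (two-sided, adjusted p 0.400, 0.743, 0.114 and 0.419 for MC38 RT against NT, Panc02-SIY RT against NT, the untreated tumors and the irradiated tumors), and 4 against 4 libraries allow no raw p below 0.0286.

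Among macrophages with at least 2000 UMIs, the 3 chain genes together had a median of 47.9 to 162 UMIs per 10000 over the MC38 NT libraries and 155 to 189 over those of MC38 RT. The share of macrophages under 20 per 10000 was 21.9% in MC38 NT (SD 12.7, n = 4) and 10.9% in MC38 RT (SD 5.55, n = 4). MC38 NT replicate 3 was at 40.8%, and without it the NT mean was 15.5%, with libraries at 14.2 to 16.5% inside the RT range of 4.88 to 17.8%. The 90th percentile was 291 to 317 and 279 to 342, ranges that overlap. These are descriptions over barcodes, with no test.

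In Panc02-SIY, no class II gene passed the threshold after radiation within macrophages, monocytes, cDCs or B cells. Of 38 tests in macrophages, monocytes, cDCs and B cells, 0 were called by edgeR, 6 had an unadjusted p below 0.05, and DESeq2 called 1, Ciita in monocytes. Those 6 were 2 in macrophages, 3 in monocytes and 1 in cDCs. At that unadjusted p stood 1777 of 12041 genes in macrophages, 574 of 7666 in monocytes, 732 of 9006 in cDCs and 295 of 4287 in B cells. The background was also low, at 3.53% of genes called in macrophages, 0.104% in monocytes, 0.733% in cDCs and 0% in B cells. In macrophages, Panc02-SIY NT stood at 5166, 5977, 4539 and 3764 CPM for H2-Aa and Panc02-SIY RT at 5384, 6364, 5498 and 5153. These ranges overlap, and the log2 fold change was 0.20 (SE 0.14, adjusted p 0.564).

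Ciita had the nearest miss in Panc02-SIY. In monocytes it stood at 63.3, 83.0, 62.9 and 41.3 CPM in NT and at 101, 118, 135 and 192 in RT. All irradiated libraries lay above the untreated ones. The log2 fold change was 1.18 (SE 0.30), but the adjusted p over all genes was 0.130. Ciita was called here in 9 of 32 other settings. All 8 class II genes testable in these monocytes had fold changes above 0, with a median of 0.61 against 0.0080 for all genes. None was called (0.104% of all genes called), and 3 had an unadjusted p below 0.05 by edgeR, against 574 of 7666 genes. Of the 8, 4 had groups without overlap, and the share of all genes without overlap was not computed. H2-Ab1 was at 0.69 (SE 0.35, adjusted p 0.718) and H2-DMb1 at 0.70 (SE 0.24, adjusted p 0.374), and they were called in 3 and 1 of 32 other settings. In macrophages Ciita was at 105, 159, 98.6 and 97.1 CPM in NT and at 154, 179, 192 and 144 in RT (log2 fold change 0.53, SE 0.22, adjusted p 0.253), where NT replicate 2 alone reached the irradiated range. Over all CD45+ cells Ciita (0.80, SE 0.19, adjusted p 0.0142) and H2-DMb2 (0.76, SE 0.19, adjusted p 0.0159) were called higher after radiation, with 6.57% of all genes called higher. Monocytes went from 0.978% to 4.10% and macrophages from 18.8% to 12.6% of the barcodes, and the part of this shift in those calls was not tested.

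In Panc02-SIY cDCs 9 of the 10 fold changes were below 0 and none was called, with H2-Ab1 at −0.31 (SE 0.29) and Cd74 at −0.28 (SE 0.26). H2-DMb2 was the exception, from 67.8 to 81.8 CPM in NT and from 99.4 to 207 in RT without overlap (log2 fold change 0.98, SE 0.43, adjusted p 0.557). The make-up of the class moved with radiation, from 83 cDC1, 13 cDC2 and 32 mregDCs of 140 cDCs in NT to 52, 45 and 54 of 173 in RT, and its part in these values was not tested. Within cDC1, H2-DMb2 was at 41.8, 59.9, 88.2 and 74.7 plain CPM in NT and at 181, 151 and 102 in RT. Within mregDCs the groups overlapped, at 0 to 115 plain CPM in NT and 29.3 to 232 in RT. These differences within subsets were not tested. In B cells all 10 genes overlapped between NT and RT.

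The radiation effect itself was not shown to differ between the tumors. In macrophages, 0 of the 10 interaction tests of tumor and radiation was called by edgeR or by DESeq2, where edgeR called 0.0083% of all genes. By edgeR 2 of the 10 had an unadjusted p below 0.05, against 631 of 12041 genes. The log2 difference between the effects was 0.47 for H2-Eb1 (SE 0.20, adjusted p 0.940) and 0.40 for Cd74 (SE 0.19, adjusted p 0.940).

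**Figure D4:**
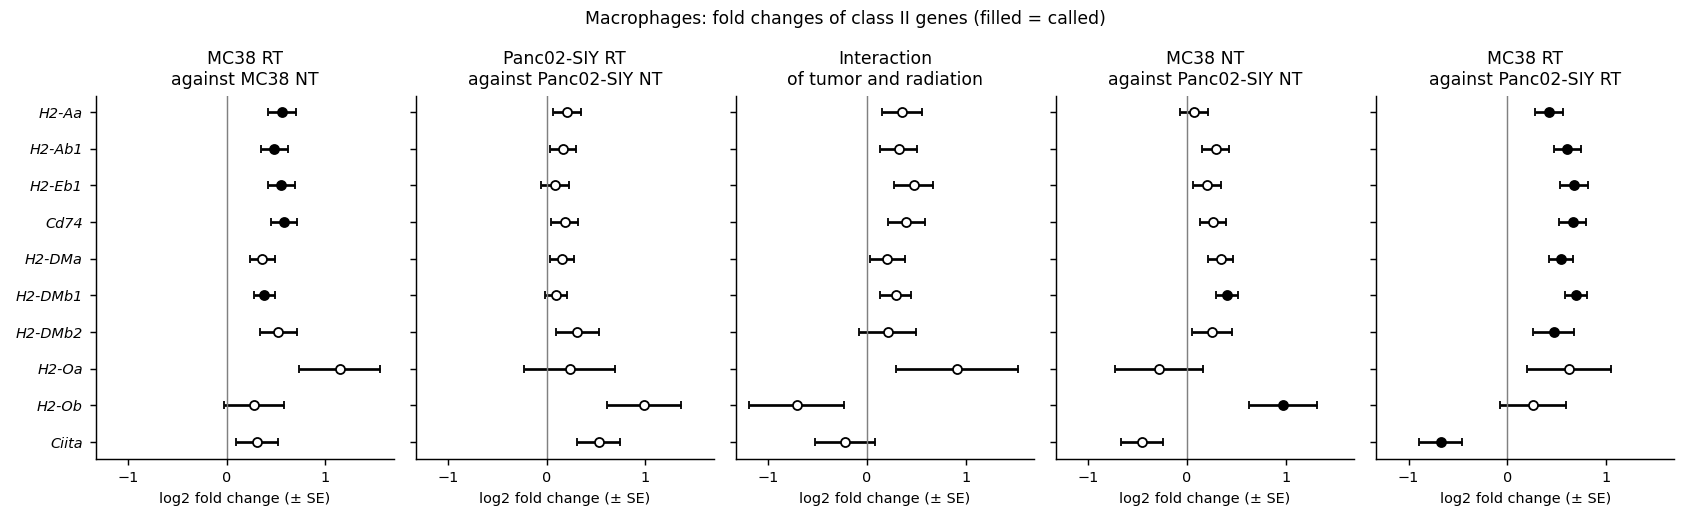
Log2 fold changes (points) and standard errors (bars) of the 10 genes in macrophages for the 4 comparisons of groups and for the interaction of tumor and radiation. Filled points passed an adjusted p of 0.1 and a fold change of 1.3: 5 genes in MC38 RT against MC38 NT, none in Panc02-SIY or the interaction, 2 between untreated tumors and 8 between irradiated tumors.

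Between tumors, the question was whether the level per macrophage differed apart from the number of macrophages. Untreated, 2 of the 10 genes were called higher in MC38 macrophages, H2-DMb1 by 0.41 (SE 0.11, adjusted p 0.00550) and H2-Ob by 0.97 (SE 0.34, adjusted p 0.0287), where 21.5% of all genes were called higher and 43.4% in either direction. H2-Ob lost its call without MC38 NT replicate 4 (0.77), and H2-DMb1 without any 1 of 4 libraries, down to 0.32. Over 16 other settings, H2-DMb1 lost its call in 5, with log2 fold changes down to 0.22, and H2-Ob in 3, down to 0.34. H2-Ob was low in both groups, at 3.52 to 6.15 plain CPM in MC38 NT and 0.851 to 3.52 in Panc02-SIY NT. With all barcodes H2-Ab1 (0.39), H2-DMa (0.43) and Ciita (−0.46) were called as well, where 5804 of 12303 genes were called. H2-Aa, at 0.07 (SE 0.14, adjusted p 0.753), overlapped almost wholly, from 3613 to 5791 CPM in MC38 NT and from 3764 to 5977 in Panc02-SIY NT. After radiation 7 were called higher in MC38 (21.8% of all genes called higher) and 1, Ciita, lower (22.4% called lower). The higher genes were H2-DMb1 by 0.70 (SE 0.11), H2-Eb1 by 0.67 (SE 0.14), Cd74 by 0.66 (SE 0.13), H2-Ab1 by 0.61 (SE 0.13), H2-DMa by 0.55 (SE 0.12), H2-DMb2 by 0.47 (SE 0.20) and H2-Aa by 0.42 (SE 0.14). Both contrasts share libraries with those of radiation above. The call of H2-Aa was lost without any 1 of 11 of the 16 libraries, with log2 fold changes from 0.34 to 0.48, and that of H2-DMb2 without any 1 of 10, from 0.36 to 0.53.

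Ciita, in contrast to the 7 higher genes, was lower in MC38 in this comparison. In macrophages its log2 fold change was −0.67 (SE 0.21, adjusted p 0.0191), with 88.6 to 118 CPM in MC38 RT and 144 to 192 in Panc02-SIY RT. In monocytes MC38 RT stood at 15.1, 63.9, 58.2 and 6.97 CPM against the 101 to 192 of Panc02-SIY RT, a log2 fold change of −1.84 (SE 0.38, adjusted p 0.000793, 10.6% of genes called lower), where the median of all genes was −0.15. The MC38 RT sums came from 7 to 15 monocytes per library. Over both MC38 groups, 6 monocyte libraries held 30 Ciita UMIs in all, against 595 in the 8 of Panc02-SIY, so the MC38 values rest on few counts. The macrophage call was lost without the 5% of barcodes with the most UMIs (−0.43), and the monocyte call when gating used thinned counts (−0.77). No other class II gene was called in monocytes by edgeR with this gate, where H2-Aa ranged from 448 to 1623 CPM in MC38 RT and from 867 to 1047 in Panc02-SIY RT. The gate on thinned counts, in contrast, called 6 others higher in MC38, among them H2-Ab1 (1.77 against −0.01 here) and H2-Eb1 (2.17 against 0.48), and all barcodes called 4. Calls over all genes in monocytes are not given here for these settings. These counts therefore cannot be told apart from a shift of many genes. Between untreated macrophages the Ciita difference was −0.46 (SE 0.21, adjusted p 0.102), and it was called in 16 of 32 other settings.

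In cDCs of untreated tumors edgeR called H2-DMb2 alone of the class II genes, at 359, 51.9, 542 and 179 CPM in MC38 NT and 80.7, 81.8, 67.8 and 74.4 in Panc02-SIY NT (log2 fold change 1.97, SE 0.44, adjusted p 0.0223, 1.9% of genes called higher). MC38 NT replicate 2 was below all Panc02-SIY libraries and the other three were above. DESeq2 called 3 genes, with H2-Eb1 at 0.97 (adjusted p 0.0226) and H2-DMb1 at 1.01 (adjusted p 0.0207) besides H2-DMb2. By edgeR H2-Eb1 was at 0.83 (adjusted p 0.114) and H2-DMb1 at 0.85 (adjusted p 0.112), and they were called in 13 and 10 of 30 other settings, all barcodes among them. The MC38 NT sums came from 5 to 12 cDCs per library, and the median of all genes in this comparison was −0.15. The make-up of the class differed as well: MC38 NT held 6 cDC1, 10 cDC2 and 13 mregDCs, and Panc02-SIY NT 83, 13 and 32. Over untreated and irradiated Panc02-SIY libraries, H2-DMb2 averaged 184 plain CPM in cDC2 (n = 5) and 99.8 in cDC1 (n = 7). Of the 4 libraries with both subsets, cDC2 was higher in 2. Among untreated Panc02-SIY libraries only replicate 4 held at least 5 cDC2, with H2-DMb2 at 32.7 plain CPM in cDC2 and 74.7 in cDC1. The cDC2 markers summed to 939 to 4703 CPM in the cDCs of MC38 NT and 909 to 1498 in those of Panc02-SIY NT, and the part of this in the difference was not tested. Irradiated MC38 kept fewer than 3 libraries with at least 5 cDCs, the minimum set here for a comparison, so radiation was not tested in MC38 cDCs at that minimum. With at least 3 cDCs per library, a limit chosen after seeing the data, 4 NT and 3 RT libraries remained, and H2-Aa was at 0.61 (SE 0.27, adjusted p 0.649 by edgeR) and H2-DMb2 at 1.03 (SE 0.43, adjusted p 0.612), the lowest adjusted p of the 10 genes.

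Depth, composition and sharing of barcodes moved with the tumor. In macrophages, the 8 macrophage markers summed to 24092 to 28850.1 CPM in MC38 RT and 15514 to 16416 in Panc02-SIY RT, the monocyte list to 1722 to 1984 and 350.2 to 893, the cDC1 list to 396 to 514 and 949 to 1226, and the T cell list to 11.8 to 24.1 and 58.6 to 258. Their part in the differences between tumors was not tested. With only barcodes of at least 5000 UMIs, a limit chosen after seeing the data, 7 class II genes were called between irradiated macrophages. Under a stricter gate 5 were called, and with all barcodes 8. In the same order, 5297 of 11873, 3981 of 11072 and 6146 of 12303 genes were called in either direction.

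A list of 27 other genes of the pathway, of which 25 were present and 24 were testable in macrophages, covers invariant chain proteases, regulators and turnover. In MC38 macrophages after radiation 3 of 24 were called higher (4.98% of all genes) and none lower: Jak2, a kinase of interferon gamma signaling, by 0.82 (SE 0.19, adjusted p 0.0126), Sppl2a, the protease that clears the last Cd74 fragment, by 0.44 (SE 0.12), and March1, the ligase that removes class II from the surface, by 0.42 (SE 0.14). In Panc02-SIY macrophages 3 of 24 were called higher (1.94% of all genes) and none lower: March1 by 0.55 (SE 0.14), the asparaginyl endopeptidase Lgmn by 0.52 (SE 0.14) and Sppl2a by 0.45 (SE 0.12). The median of the 24 was 0.17 in MC38 and 0.23 in Panc02-SIY. None of the pathway genes was called after radiation in Panc02-SIY monocytes (0 of 24), cDCs (0 of 25) or B cells (0 of 21) by edgeR. An unadjusted p below 0.05 was reached by 5, 3 and 2 of them, against 574 of 7666, 732 of 9006 and 295 of 4287 genes.

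Between irradiated macrophages 10 of 24 pathway genes were higher in MC38 and 5 lower, where 21.8% of all genes were higher and 22.4% lower. The protease Ctsl (0.93, SE 0.13), which cuts the invariant chain, Cd83 (0.91, SE 0.23), which opposes March1, Jak2 (0.87, SE 0.21) and the receptor chain Ifngr2 (0.76, SE 0.10) were among the higher genes. Rfx5 (−0.84, SE 0.28), a subunit of the X box factor, Creb1 (−0.81, SE 0.12) and March1 (−0.70, SE 0.14) were among the lower ones. Between untreated macrophages 9 were higher in MC38, led by Cd83 (1.20, SE 0.23), Ctsl (0.98, SE 0.13), Ifngr2 (0.95, SE 0.10), Ifngr1 (0.86, SE 0.16) and Lgmn (0.86, SE 0.14). Rfx5 (−1.11, SE 0.27) and Irf1 (−0.83, SE 0.36) were among the 5 lower, where 21.5% of all genes were higher and 21.8% lower. Between irradiated monocytes 5 of 24 were higher in MC38 (8.05% of all genes): Rfxap (1.65, SE 0.48), Ctsd (1.55, SE 0.28), Lgmn (1.10, SE 0.30), Ctsl (1.03, SE 0.28) and Ctss (0.91, SE 0.16). Another 3 were lower (10.6% of all genes): Ifngr1 (−1.10, SE 0.23), Jak1 (−0.63, SE 0.25) and Irf4, which was at 0 in the 4 MC38 RT libraries and at 8.83 to 18.5 CPM in Panc02-SIY RT. Between untreated cDCs, Ctss (1.23, SE 0.32) was the 1 of 25 called by edgeR.

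Over the 99 sums of a class in a library, the genes whose levels followed H2-Aa, H2-Ab1, H2-Eb1 and Cd74 most closely were found among 6046 genes by Pearson's correlation with the mean z score of these 4. They were Ly86 (0.843), which pairs with a Toll-like receptor homolog, the protease Ctsh (0.833), Plekho1 (0.808), Pkib (0.805), Cd83 (0.774), the aminopeptidase Anpep (0.772), Gm6377 (0.756), the Fc receptor Fcgrt (0.745), Fgd2 (0.744) and Erp29 (0.740). The sums share libraries and depth, so these values describe the classes sampled. Of the class II genes left out of that score, H2-DMa (0.851) and H2-DMb1 (0.805) followed it most closely and H2-Oa least (0.433). Ly86 was highest in macrophages at 898 CPM, whereas Cd83 was highest in mregDCs at 798 CPM, where H2-Ab1 was low against H2-Aa.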

How the data were processed

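Cells were profiled with the 10x 3' kit, and 16 libraries, 4 per group, were taken from the labels. The authors deposited filtered matrices of UMI counts per gene and barcode, made per the labels with bcl2fastq 2.20.0 and Cell Ranger 3.1.0 on mm10. Kept barcodes held 1385711 to 8500889 UMIs per MC38 library and 5275195 to 43708746 per Panc02-SIY library. The precision of a level rests on these counts, and intervals between libraries cover the spread of libraries only.

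Barcodes found in several libraries of a tumor were kept once, where their UMI count was highest. Classes came from 11 lists of 8 markers, without clustering. Doublets were not called, and an alternative left out the 5% of barcodes with the most UMIs. Counts were summed per class and library with at least 5 barcodes. Groups were compared where at least 3 libraries per group remained, with edgeR 4.0.16 in R 4.3.3 (TMM, minimum count 3, minimum total 15, quasi-likelihood with robust dispersion, 4 groups in 1 fit), with Benjamini-Hochberg adjustment over all genes. Classes within a tumor were compared on log2(CPM + 1) by exact sign-flip permutation over libraries. Shares were compared by exact permutation (scipy 1.17.1). The edgeR step was tested on simulated data. DESeq2 1.42.0, other scalings, filters, gates, depths and each library left out were alternatives.

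All 10 class II genes are named, and of the pathway genes past the threshold in macrophages, monocytes, cDCs and B cells up to 8 per comparison, by size of the log2 fold change, apart from an item that is not reported here. The members and lists were chosen with earlier results of these data known.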

Additional observations from a re-analysis of the deposited data

Results flagged for a closer look

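Among 107 groups of 4 libraries examined, 2 held a library far from the other three, where chance gives about 5.35. Ciita in macrophages of Panc02-SIY NT was highest in replicate 2, at 167 CPM against 102.5 to 112.0 CPM. H2-Aa in monocytes of Panc02-SIY RT was lowest in replicate 1, at 915 CPM against 1040 to 1055 CPM. Both values are plain CPM.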

How the results depend on the processing

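Counts of class II genes called in macrophages, monocytes, cDCs and B cells together depended on the processing. The number of tests differed between settings as well, since keeping more libraries lets further classes be tested. The part of either in the counts was not tested. Calls over all genes in macrophages moved as well. For MC38 RT against NT they were 1143 of 12041 in the reported fit. They were 1309 of 12041 with library size alone and 802 of 11072 with the stricter gate. Between untreated tumors they were 5223 of 12041 in the reported fit. With all barcodes they were 5804 of 12303, and with the stricter gate 4289 of 11072. For the other classes they are not given here by setting. For MC38 RT against NT (5), library size alone and the stricter gate gave 3 each and leaving out the 5% of barcodes with the most UMIs gave 0. For Panc02-SIY RT against NT (0), all barcodes, library size alone, DESeq2 and barcodes of at least 5000 UMIs gave 1 each, no filter 4, only the groups compared 3 and the stricter gate 2. For the untreated tumors (3), all barcodes gave 15, RLE, DESeq2, leaving out the top 5% and libraries of at least 3 barcodes 5 each, library size alone 8, a minimum count of 10 or barcodes of at least 5000 UMIs 6, the stricter gate 1, the looser gate 13 and gating on thinned counts 10. For the irradiated tumors (9), all barcodes gave 21, library size alone and the stricter gate 5, and libraries of at least 3 barcodes 14. The reported fit of that pair tested 10 genes in macrophages and 8 in monocytes, and none in cDCs or B cells. With libraries of at least 3 barcodes, macrophages gave 8 of the 14, and 3 MC38 RT libraries then allowed a test in cDCs. The limits of 5000 UMIs and of 3 barcodes were chosen after seeing the data. The interaction gave 0 throughout. Leaving out 1 library gave 3 to 6, 0 to 2, 3 to 7, 7 to 9 and 0 to 0 in the same order.

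Differences in the share of macrophages with class II UMIs ranged from 2.61 to 11.8 percentage points (MC38 RT minus NT), −0.183 to 0.894 (Panc02-SIY RT minus NT), −13.6 to −4.43 (untreated tumors) and −3.11 to −1.14 (irradiated tumors) with 1 library left out. They reversed without thinning to −0.226 in MC38 and −0.169 in Panc02-SIY, and in Panc02-SIY to −0.0881 with the stricter gate and −0.381 without the top 5%. MC38 neighboring pairs went from 15 to 25 with all barcodes and to 0 with the stricter gate.

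Replicate numbers did not pair the libraries: of 24 same-number pairs, correlations of deviations ran from −0.0749 to 0.445 and 1 exceeded 0.1. The replicate block gave 5, 0, 4, 9 and 0 calls.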
